A study of Mus musculus with 6 samples.

Results

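The enzymes that make citrulline, arginine and creatine, the creatine transporter and the arginases were examined in villi of mice that lack *Trpm7* in the intestinal epithelium. The list held 10 genes, *Gatm*, *Gamt*, *Slc6a8*, *Cps1*, *Otc*, *Oat*, *Ass1*, *Asl*, *Arg1* and *Arg2*. It was chosen by pathway, with earlier results on these arrays known. Each gene was represented by the probe set with a single gene symbol that had the highest mean over the 6 arrays, and 9 of the 10 had such a probe set, among 19938 genes on the array. *Ass1* had none, because both of its probe sets are also assigned to *Gm5424*, so its signal is given apart and is not counted. Since the list was drawn up with these results known, its counts describe the pathway and are not evidence for it.

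Villi were isolated mechanically from the intestine of littermates aged 5 days (P5), and total RNA was hybridised to 1 Affymetrix whole-transcript array per replicate. The mutant group carried *Villin1-Cre* on *Trpm7* fl/fl (n = 3), called *Trpm7*-intestine KO, and the control group was *Trpm7* fl/fl without the transgene (n = 3), so both groups carried the floxed alleles. The *Villin1* promoter drives Cre in epithelial cells of the whole intestine, and *Trpm7* of other cells in the villus is left intact. The labels name C57BL/6 as the background and leave the sex unknown, whereas by the study's methods the floxed line, whose alleles both groups carry, came from a different strain than the Cre line.

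Citrulline is made in the mitochondria of enterocytes from ammonia and ornithine, and arginine is then made from citrulline in the cytosol. In suckling rodents the small intestine carries the whole route and is a main source of the pup's arginine, whereas after weaning the gut releases citrulline and the kidney completes the synthesis. Arginine is in turn the donor of the amidino group of creatine, the store of high-energy phosphate, and is split by arginases into ornithine and urea. A lower signal in villi can stand for fewer cells of a type or for less RNA per cell, and arrays of bulk tissue cannot tell these apart.

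The deposited values are log2 signals, and all levels and differences below are on this scale. Differences are mutant minus control, from limma over all 30177 probe sets, and a change was called, as a rise or a fall, where the Benjamini-Hochberg adjusted p did not exceed 0.05. The *Trpm7* signal itself was 8.03, 7.79 and 7.88 in mutant villi, against 9.11, 8.96 and 9.03 in control villi, and whether its probes lie in the deleted part is not given. The median signal of the arrays ran only between 6.24 and 6.30. Probe sets under it may be near background, which was not tested, so their differences are ratios of signals and not of transcript amounts. An exact permutation test of 3 against 3 arrays cannot give a p under 0.1.
Some arrays stood apart. Transcripts of hepatocytes were high in mutant replicate 3, where *Alb* was at 12.13 and *Fgb* at 10.03. *Alb* was at 5.55 and 8.57 in mutant replicates 1 and 2, against 5.69, 6.99 and 7.07 in control replicates. *Xist*, the female-specific transcript of the inactive X chromosome, was high in mutant replicate 1 (10.18) and low in mutant replicates 2 and 3 (4.76 and 5.26), against 10.48, 9.82 and 9.66 in control replicates. The Y-linked *Eif2s3y* was low in mutant replicate 1 (3.56) and in control replicate 1 (3.63), and lay between 7.71 and 8.50 on the other arrays. Control replicates 2 and 3 therefore held both kinds of transcript, which the labels, with sex given as unknown, do not settle. They were also the most alike 2 arrays of a group, with an SD of their differences of 0.184, against 0.239 to 0.280 for the other pairs.

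Of the 9 genes, 6 fell (*Gatm*, *Gamt*, *Cps1*, *Otc*, *Oat* and *Asl*), 1 rose (*Arg2*), and *Slc6a8* and *Arg1* did not pass the test. Over all probe sets, 8.82% fell and 8.04% rose, or 2661 and 2427 in number. With each array centred on its median the same totals were 3456 and 1996, and the calls of the 9 genes did not change. A change of at least 2-fold was seen for *Gatm* among the falls, where 1.17% of all probe sets qualified, and for *Arg2* among the rises, where 1.35% did. The mutant values lay wholly below the control values for the 6 genes that fell and wholly above them for *Arg2*. Of all probe sets, 17.6% were below and 16.9% above without overlap. The median difference of the 9 genes was -0.54, and that of all genes was 0.01.

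**Figure D1:**
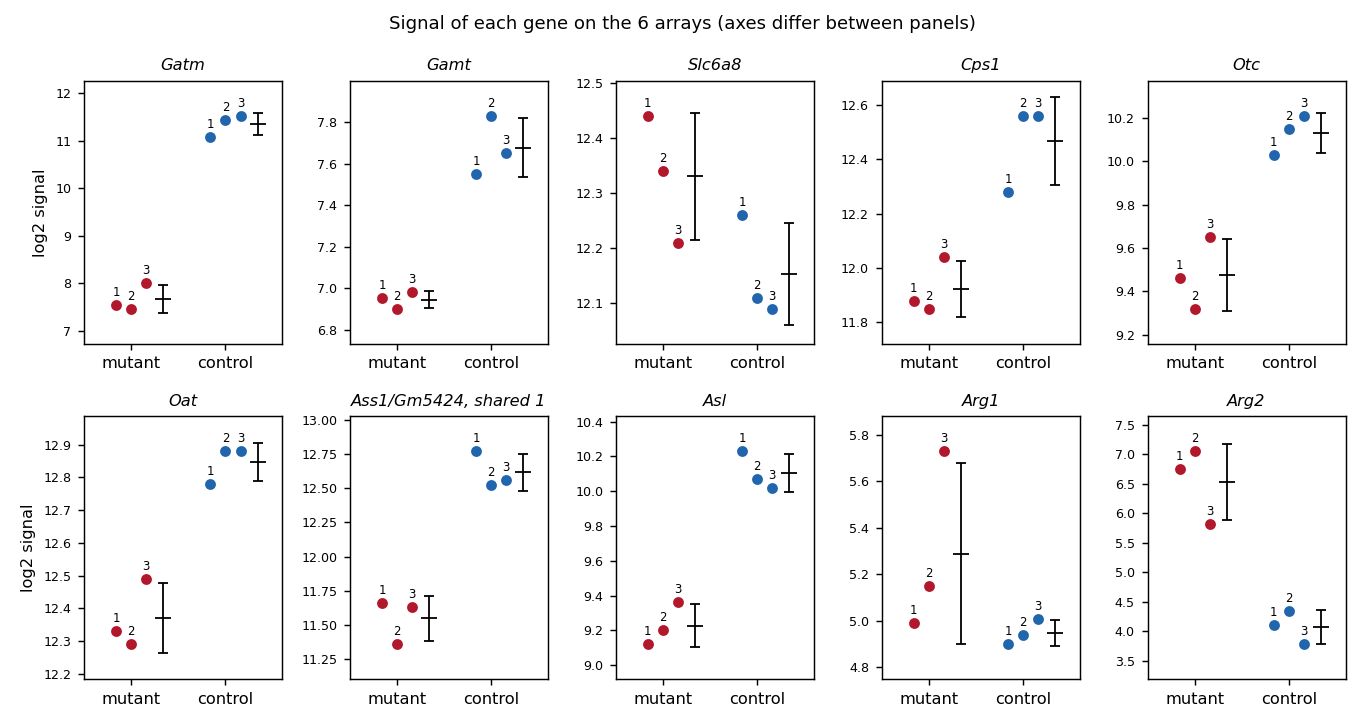
Log2 signal of 9 genes and of 1 probe set shared by *Ass1* and *Gm5424*, each in its own panel with its own vertical axis. Points are single arrays with their replicate number, and the bars show mean and SD over 3 mutant and 3 control arrays. The mutant points of *Gatm* sit between 7.46 and 8.00, below the lowest control point at 11.09, and those of *Slc6a8* and *Arg1* overlap the control points.

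*Gatm* encodes arginine:glycine amidinotransferase, the mitochondrial enzyme that makes guanidinoacetate, the precursor of creatine. It had by far the largest difference of the list. Its signal was 7.54, 7.46 and 8.00 in mutant villi, against 11.09, 11.45 and 11.53 in control villi. The groups were 3.09 apart at their nearest values, with mutant replicate 3 the highest of the mutants and control replicate 1 the lowest of the controls. *Gatm* averaged 7.67 ± 0.29 in mutant villi and 11.36 ± 0.23 in control villi (SD, n = 3 each), and was 12.9-fold lower. The difference was -3.69 (95% interval -4.08 to -3.30; adjusted p = 2.7e-05 from limma), and ranked 3 among the falls of all 19938 genes. The mutant mean still lay above the arrays' median.
*Gamt*, the methyltransferase that turns guanidinoacetate into creatine, fell as well but far less. Its signal was 6.95, 6.90 and 6.98 in mutant villi, against 7.55, 7.83 and 7.65 in control villi. The mutant values were within 0.08 of each other, and all lay below the lowest control. The mean was 6.94 ± 0.04 in mutant villi and 7.68 ± 0.14 in control villi (SD, n = 3 each), a difference of -0.73 (95% interval -0.94 to -0.53; adjusted p = 0.0014 from limma) or 1.66-fold.
*Slc6a8*, the sodium- and chloride-dependent transporter that brings creatine into cells, did not follow the enzymes. It gave 12.44, 12.34 and 12.21 in mutant villi, against 12.26, 12.11 and 12.09 in control villi, and mutant replicate 3 lay below control replicate 1. The difference was 0.18 (95% interval -0.03 to 0.38; adjusted p = 0.24 from limma), so a change between 0.980-fold and 1.30-fold is compatible with the interval. *Slc6a8* lies on the X chromosome. In the pair of arrays with *Xist* and without *Eif2s3y*, mutant replicate 1 and control replicate 1, the difference was 0.18, the same as between the means of the other arrays. Those other arrays were not matched, since *Xist* was low in the mutants and high in the controls. The part of sex was not tested.
Of the 3 genes of creatine synthesis and uptake, both enzymes were lower and the transporter was not called.

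The genomic sequence around the start sites of the genes that fell is given next, since they fell together. RefSeq promoters (GRCm38.p6, 250 bases before to 50 bases after the start) matched 5 of the 10 genes by symbol, *Gatm*, *Gamt*, *Otc*, *Oat* and *Ass1*, and the 4 with a probe set of their own are shown. Capitals mark matches, on either strand, to any of 5 short motifs, which were the TATA box TATAAA, the CCAAT box CCAAT, the GC box GGGCGG, AAAGTNCA as part of the site of the hepatocyte and enterocyte factor HNF4A, and TGACNNNGC as the core of the antioxidant response element. Matches may overlap each other.
*Gatm* promoter, chr2:122611228-122611527, minus strand: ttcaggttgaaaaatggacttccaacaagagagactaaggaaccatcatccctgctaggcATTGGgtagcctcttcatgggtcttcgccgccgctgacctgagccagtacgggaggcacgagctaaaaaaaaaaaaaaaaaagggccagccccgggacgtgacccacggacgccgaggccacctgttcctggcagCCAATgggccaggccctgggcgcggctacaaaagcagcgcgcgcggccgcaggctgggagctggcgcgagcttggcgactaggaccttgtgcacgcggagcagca
*Gamt* promoter, chr10:80260963-80261262, minus strand: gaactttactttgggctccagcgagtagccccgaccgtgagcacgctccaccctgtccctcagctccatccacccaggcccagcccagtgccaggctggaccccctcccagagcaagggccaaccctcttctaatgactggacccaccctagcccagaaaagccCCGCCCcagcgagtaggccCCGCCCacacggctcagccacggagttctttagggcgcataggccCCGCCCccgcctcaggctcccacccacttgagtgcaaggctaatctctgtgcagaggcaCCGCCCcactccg
*Otc* promoter, chrX:10252055-10252354, plus strand: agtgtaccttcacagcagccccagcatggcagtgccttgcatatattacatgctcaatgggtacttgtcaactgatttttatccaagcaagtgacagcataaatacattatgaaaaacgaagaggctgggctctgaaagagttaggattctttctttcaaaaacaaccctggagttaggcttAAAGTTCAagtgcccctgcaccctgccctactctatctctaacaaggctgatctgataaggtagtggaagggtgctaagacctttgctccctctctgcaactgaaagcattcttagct
*Oat* promoter, chr7:132576349-132576648, minus strand: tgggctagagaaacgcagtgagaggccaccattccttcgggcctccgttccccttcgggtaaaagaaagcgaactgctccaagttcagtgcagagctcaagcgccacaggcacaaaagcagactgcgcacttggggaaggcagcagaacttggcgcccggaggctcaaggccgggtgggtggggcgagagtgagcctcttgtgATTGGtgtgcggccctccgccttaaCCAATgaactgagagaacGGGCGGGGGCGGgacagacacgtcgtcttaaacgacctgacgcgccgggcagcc
The *Gatm* window held 2 matches to the CCAAT box, which was present in 37.4% of all 32851 promoter windows. In the *Gamt* window there were 4 matches to the GC box, which 35.7% of all windows held. *Otc* had 1 match to AAAGTNCA, present in 4.12% of windows. *Oat* had 2 matches to CCAAT and 2 to GGGCGG. The TATA box (13.6% of windows) and TGACNNNGC (12.4%) had no match in the 4 windows shown. No motif was held by all 4 windows, and a match is a string of letters and not a site shown to be used.

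The 3 enzymes that make citrulline fell by similar amounts, between 0.48 and 0.65. *Cps1*, carbamoyl phosphate synthetase, joins ammonia and bicarbonate in the mitochondrion. Its signal was 11.88, 11.85 and 12.04 in mutant villi, against 12.28, 12.56 and 12.56 in control villi. The groups were 0.24 apart, the smallest gap among the 7 genes that changed. The means were 11.92 ± 0.10 in mutant villi and 12.47 ± 0.16 in control villi (SD, n = 3 each), and the difference of -0.54 (95% interval -0.78 to -0.31) had an adjusted p of 0.0095 from limma.
*Otc*, ornithine transcarbamylase, joins carbamoyl phosphate and ornithine to citrulline. It gave 9.46, 9.32 and 9.65 in mutant villi, against 10.03, 10.15 and 10.21 in control villi, with no overlap. The means were 9.48 ± 0.17 in mutant villi and 10.13 ± 0.09 in control villi (SD, n = 3 each), a difference of -0.65 (95% interval -0.89 to -0.42; adjusted p = 0.0041 from limma). *Otc* is X-linked too, and in the pair with *Xist* and without *Eif2s3y* the difference was -0.57. It was -0.70 between the means of the other arrays, which were not matched in *Xist*.
*Oat*, ornithine aminotransferase, interconverts ornithine and glutamate semialdehyde and supplies the ornithine for citrulline in the gut. Its signal was 12.33, 12.29 and 12.49 in mutant villi, against 12.78, 12.88 and 12.88 in control villi. All mutant values were lower, and the means of 12.37 ± 0.11 in mutant villi and 12.85 ± 0.06 in control villi (SD, n = 3 each) differed by -0.48 (95% interval -0.67 to -0.29; adjusted p = 0.0064 from limma).
The falls were 1.46-fold for *Cps1*, 1.57-fold for *Otc* and 1.39-fold for *Oat*. Their intervals overlap. The 3 enzymes were not tested against each other, so no order among them is given.

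*Asl*, argininosuccinate lyase, releases arginine in the last step of the route. Its signal was 9.12, 9.20 and 9.36 in mutant villi, against 10.23, 10.07 and 10.02 in control villi. The groups were 0.66 apart, with mutant replicate 3 again the highest mutant. *Asl* averaged 9.23 ± 0.12 in mutant villi and 10.11 ± 0.11 in control villi (SD, n = 3 each), and fell 1.84-fold (difference -0.88, 95% interval -1.10 to -0.66; adjusted p = 7.5e-04 from limma).
The step before it is that of argininosuccinate synthetase, *Ass1*. One of the 2 probe sets shared by *Ass1* and *Gm5424* gave 11.66, 11.36 and 11.63 in mutant villi, against 12.77, 12.52 and 12.56 in control villi. It fell by 1.07 (95% interval -1.32 to -0.81; adjusted p = 6.3e-04 from limma). The other gave 11.57, 11.29 and 11.56 in mutant villi, against 12.67, 12.42 and 12.45 in control villi, and fell by 1.04 (adjusted p = 6.8e-04 from limma). Both lay wholly lower in mutant villi, by about 2-fold. They are assigned to the same 2 genes and are no independent measurements, and which of the 2 genes they measure cannot be told apart.

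**Figure D2:**
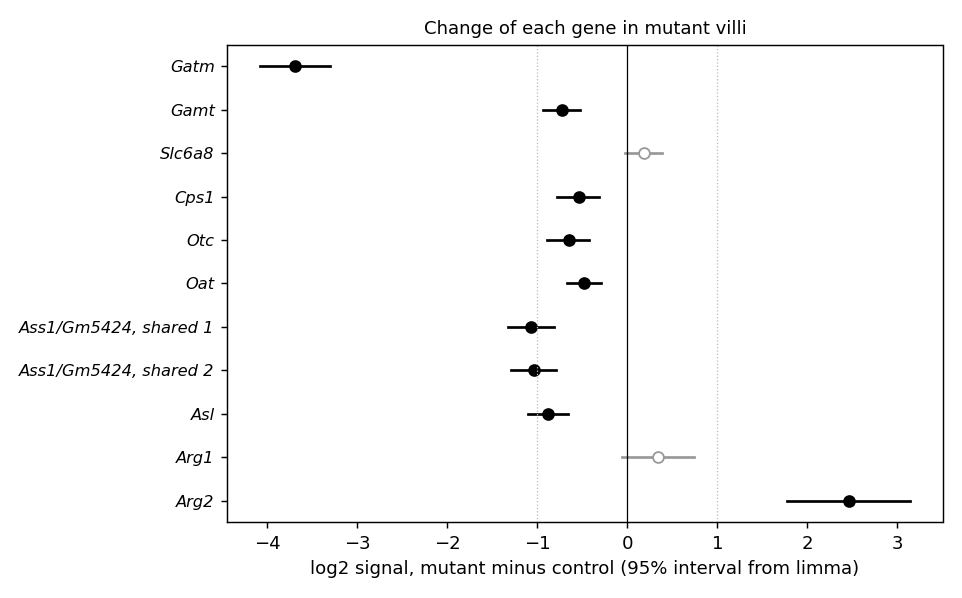
Difference in log2 signal, mutant minus control, of each gene and of both probe sets shared by *Ass1* and *Gm5424*, from 3 arrays per group. Points are the differences, horizontal lines their 95% intervals from limma, filled points the called changes, and dotted lines a 2-fold change. *Gatm* lies at -3.69 and *Arg2* at 2.46, and the intervals of *Slc6a8* and *Arg1* include 0.

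The arginases went the other way or were not called. *Arg2* encodes the mitochondrial arginase, the form found in gut, kidney and macrophages. It gave 6.74, 7.05 and 5.81 in mutant villi, against 4.10, 4.35 and 3.78 in control villi. Mutant replicate 3 was the lowest mutant, and still 1.46 above the highest control. *Arg2* averaged 6.53 ± 0.65 in mutant villi and 4.08 ± 0.29 in control villi (SD, n = 3 each). The difference was 2.46 (95% interval 1.77 to 3.14; adjusted p = 0.0013 from limma), or 5.49-fold, and it ranked 38 among the rises of all genes. All 3 control values lay well under the arrays' median, so the fold is one of signals. With an offset of 32 added to the linear signals the difference was 1.37 (adjusted p = 0.00845), and without probe sets of a mean under the median *Arg2* was not tested.
*Arg1*, the cytosolic arginase that ends the urea cycle in liver, stayed under the arrays' median on every array. Its signal was 4.99, 5.15 and 5.73 in mutant villi, against 4.90, 4.94 and 5.01 in control villi. The highest value was that of mutant replicate 3, the array with high *Alb*, and the other mutant values reached into or near the control range. The difference was 0.34 (95% interval -0.06 to 0.74; adjusted p = 0.24 from limma), and without mutant replicate 3 it was 0.12 (adjusted p = 0.456).

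Mutant replicate 3 was the highest mutant array for each of the 6 genes that fell. This was so for 52.8% of the 2661 probe sets that fell, and mutant replicate 3 also lay nearest to the control arrays on the first principal component (28.1, against 35.2 and 35.6 for the other mutants and -33.4 to -32.3 for the controls). The liver makes *Cps1*, *Otc*, *Asl* and *Arg1* in quantity, and hepatocyte transcripts were high on this array. Of 7 hepatocyte markers measured none rose or fell (limma; also none at an unadjusted p under 0.05), but 1 rose without mutant replicate 1. Their summed signal ran from 8.33 to 12.69 in mutant villi, against 8.52 to 8.75 in control villi. Without mutant replicate 3 the falls were larger, at -0.60 for *Cps1*, -0.74 for *Otc* and -0.95 for *Asl*, with adjusted p of 0.0137, 0.00324 and 0.00122 from limma. The other genes that fell did so by more as well, at -3.86 for *Gatm*, -0.75 for *Gamt* and -0.54 for *Oat*.
*Gatm* is abundant in the exocrine pancreas as well as in kidney. Pancreatic transcripts varied between arrays of both groups. *Ctrb1*, a chymotrypsinogen, gave 10.46, 8.16 and 9.68 in mutant villi, against 8.71, 10.59 and 10.64 in control villi. *Cpa1*, a carboxypeptidase, gave 8.78, 6.63 and 8.23 in mutant villi, against 6.67, 8.66 and 8.88 in control villi. Mutant replicate 2 and control replicate 1 had the lowest values of their groups for both, as they had for *Gatm*. Of 9 pancreatic markers, none rose and only *Cela1* fell, by 0.35 (not called without control replicate 2 or 3, adjusted p 0.0503 to 0.0586), and the summed signal ran from 9.75 to 11.49 in mutant villi and from 9.92 to 11.74 in control villi. Mutant replicate 1, with a *Ctrb1* signal near that of control replicate 2, had a *Gatm* signal of 7.54, and control replicate 1, with low pancreatic transcripts, one of 11.09. The part of either tissue in these differences was not tested.

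**Figure D3:**
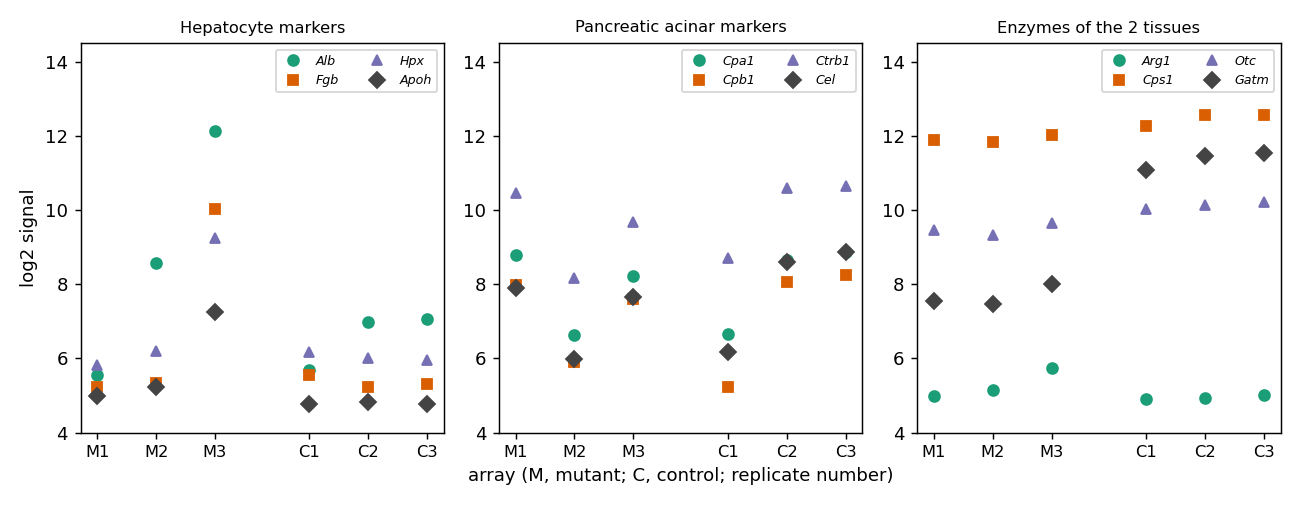
Log2 signal on each array (M, mutant; C, control; numbers are replicates) of 4 hepatocyte markers, 4 pancreatic acinar markers and 4 enzymes that liver or pancreas also make. Points are single arrays. Hepatocyte markers peak on mutant replicate 3, where *Alb* is at 12.13, and pancreatic markers are low on mutant replicate 2 and control replicate 1, whereas *Gatm* separates the groups.

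Markers of other cells of the villus were read on the same arrays. Of 11 markers of intestinal epithelium, 6 rose and 1 fell. *Krt20* (1.37), *Krt19* (1.12), *Krt8* (0.79), *Krt18* (0.61), *Cdh1* (0.34) and *Epcam* (0.27) were higher and *Cdx2* fell by 0.40. The other 4, *Vil1* (0.24), *Cldn7* (0.20), *Fabp2* (-0.09) and *Cdx1* (-0.09), were not called, and are given so that all 11 are named. With 1 replicate left out, 3 to 5 of the 11 rose. The summed signal of all 11 was 15.71 to 15.81 in mutant villi and 15.40 to 15.42 in control villi, without overlap. The part of the amount or state of the epithelium in the falls of the listed enzymes was not tested.
Of 10 macrophage and neutrophil markers, *Itgam* (0.83), *Csf3r* (0.69) and *Fcgr3* (0.55) rose and *Adgre1* fell by 0.54, with 0 to 2 rises once 1 replicate was left out. The summed signals were 11.20 to 11.40 in mutant villi and 11.08 to 11.28 in control villi. Of 10 markers of fibroblasts and smooth muscle, *Dcn* (1.03) and *Pdgfra* (0.56) rose, and *Pdgfra* was not called without mutant replicate 2 (adjusted p = 0.0637). Of 5 endothelial markers, *Tek* fell by 0.81 and *Emcn* fell by 0.53. None of 6 lymphocyte and 3 erythroid markers was called by limma, nor had any an unadjusted p under 0.05, but 1 erythroid marker rose without mutant replicate 1. The part of these cells in the signals of *Arg2* and *Gatm* was not tested.

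The genes around the route were read from 7 further lists, drawn up from textbook roles but with earlier results of these data known. They held 74 genes, of which 63 had a probe set of their own. Of these, 16 rose, 12 fell and 35 were not called, or 25.4% higher and 19.0% lower. Among all 19938 genes these shares were 9.39% and 10.1%. The median difference of the 63 genes was 0.07, so rises and falls were mixed. As with the members, these shares describe the lists and are not evidence for them.

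Genes that feed nitrogen and carbon into citrulline moved in both directions. *Aldh18a1*, which makes glutamate semialdehyde from glutamate and so opens the way to ornithine, gave 11.57, 11.41 and 11.67 in mutant villi, against 12.34, 12.34 and 12.33 in control villi. It fell by 0.79 (adjusted p = 7.9e-04 from limma), about as much as *Asl*. *Glud1*, glutamate dehydrogenase, gave 10.33, 10.27 and 10.16 in mutant villi, against 9.19, 9.48 and 9.54 in control villi, a rise of 0.85 (adjusted p = 0.0016). *Glul*, glutamine synthetase, rose by 0.54 and *Got1*, the cytosolic aspartate aminotransferase, by 0.47. *Got1* was not called without control replicate 2 or control replicate 3 (adjusted p 0.054 to 0.0567), nor was *Glul*, which was also lost without mutant replicate 1 or mutant replicate 3 (adjusted p 0.091 to 0.108). The other fall was that of *Got2*, the mitochondrial aspartate aminotransferase, by 0.33 (adjusted p = 0.026), named after its values were seen and kept in 1 of the 6 fits with 1 replicate left out (adjusted p up to 0.0843). Of the 9 genes in this list, 3 rose and 2 fell, and with 1 replicate left out 1 to 4 rose and 1 to 2 fell.
Genes between proline and ornithine moved in both directions too. *Prodh*, proline dehydrogenase, gave 8.77, 8.22 and 8.48 in mutant villi, against 7.94, 7.58 and 7.68 in control villi (difference 0.76, adjusted p = 0.012 from limma). *Aldh4a1*, which takes the product on to glutamate, gave 7.03, 6.98 and 6.94 in mutant villi, against 6.04, 6.25 and 5.81 in control villi (difference 0.95, adjusted p = 0.0013). The control signals of *Aldh4a1* averaged under the arrays' median. In the same list, *Prodh2* fell by 0.33 and *Pycrl* fell by 0.32, but *Prodh2* was called in 2 and *Pycrl* in 1 of the 6 fits with 1 replicate left out (adjusted p up to 0.0908 and 0.113). Of 5 genes, 2 rose and 2 fell.

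Carriers of the route's metabolites included 4 falls and 2 rises among 15 genes. *Slc25a15*, the mitochondrial exchanger of ornithine and citrulline that links *Otc* to the cytosol, gave 9.82, 9.84 and 10.24 in mutant villi, against 10.81, 11.03 and 11.04 in control villi. Its fall of 0.99 (adjusted p = 0.0018 from limma) was a little larger than that of *Asl*, and mutant replicate 3 was again the highest mutant. *Slc7a7*, the light chain of the basolateral exporter of arginine and lysine, gave 11.06, 10.71 and 10.74 in mutant villi, against 11.65, 11.38 and 11.43 in control villi (difference -0.65, adjusted p = 0.0083). *Slc7a1*, the cationic amino acid transporter CAT1, gave 8.68, 8.71 and 8.65 in mutant villi, against 7.74, 7.88 and 7.84 in control villi (difference 0.86, adjusted p = 2.7e-04). *Slc7a9*, the light chain of the apical importer of cystine and cationic amino acids, fell by 0.38 (adjusted p = 0.036), a call kept in 1 of the 6 fits with 1 replicate left out (adjusted p up to 0.1), and the heavy chains *Slc3a1* (0.14) and *Slc3a2* (-0.10) were not called. These 3 were named after their values were seen, and importers and exporters showed no common direction. *Slc38a4*, a carrier of neutral and cationic amino acids, rose by 0.79 with control signals under the arrays' median, and was not called without control replicate 1 or control replicate 3 (adjusted p from 0.0517 to 0.0538 where lost).

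Of 10 genes of polyamine metabolism, 4 rose and 1 fell, with any 1 replicate left out as well. *Smox*, spermine oxidase, gave 8.43, 8.21 and 8.50 in mutant villi, against 7.48, 6.98 and 7.19 in control villi (difference 1.16, adjusted p = 0.0012 from limma). *Srm*, spermidine synthase, rose by 0.84 and *Azin1*, an inhibitor of the antizymes that degrade ornithine decarboxylase, by 0.86. *Agmat*, annotated as agmatinase, gave 9.63, 9.56 and 9.37 in mutant villi, against 10.12, 10.49 and 10.51 in control villi, and fell by 0.85 (adjusted p = 0.0031).
Of 7 genes of nitric oxide synthesis and its inhibitors, 2 rose and 1 fell. *Ddah1*, which hydrolyses the methylated arginines that inhibit nitric oxide synthases, had the largest rise among the 63 genes. It gave 10.57, 10.03 and 10.18 in mutant villi, against 7.37, 6.98 and 7.13 in control villi, a difference of 3.10 (adjusted p = 3.5e-05 from limma). *Agxt2*, a mitochondrial aminotransferase that also disposes of methylated arginines, gave 5.68, 5.55 and 6.07 in mutant villi, against 6.80, 6.86 and 6.89 in control villi (difference -1.08, adjusted p = 0.0013). The 2 genes therefore moved in opposite directions, and the mutant values of *Agxt2* lay under the arrays' median. *Prmt1*, the main methyltransferase of arginine residues, rose by 0.46, and the call was lost on leaving out mutant replicate 1, 2 or 3 (adjusted p 0.0651 to 0.0837).

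Of 7 genes in the list of creatine kinases, a creatine carrier and relatives of *Slc6a8*, 2 rose and 2 fell. *Slc16a12*, a monocarboxylate family member that carries creatine, gave 5.09, 5.58 and 5.47 in mutant villi, against 6.07, 6.91 and 6.90 in control villi (difference -1.25, adjusted p = 0.0094 from limma). *Ckmt2*, the sarcomeric mitochondrial creatine kinase, fell by 0.68, and the mutant means of both lay under the arrays' median. *Ckmt1*, the ubiquitous mitochondrial creatine kinase, gave 12.62, 12.51 and 12.37 in mutant villi, against 12.20, 11.93 and 11.91 in control villi. Its rise of 0.49 (adjusted p = 0.018) was lost without mutant replicate 1, mutant replicate 2, control replicate 2 or control replicate 3 (adjusted p from 0.0609 to 0.0661). *Slc6a6*, the taurine transporter of the family of *Slc6a8*, rose by 0.61 (adjusted p = 0.0021). Of 10 genes that supply methyl groups for *Gamt*, *Ahcyl2* rose by 0.47 and none fell by limma (none at an unadjusted p under 0.05 either). *Mat1a*, the liver form of methionine adenosyltransferase, was at 4.27, 4.69 and 7.12 in mutant villi, against 4.17, 4.12 and 4.34 in control villi, and was high only on mutant replicate 3. It was named after its values were seen.

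**Figure D4:**
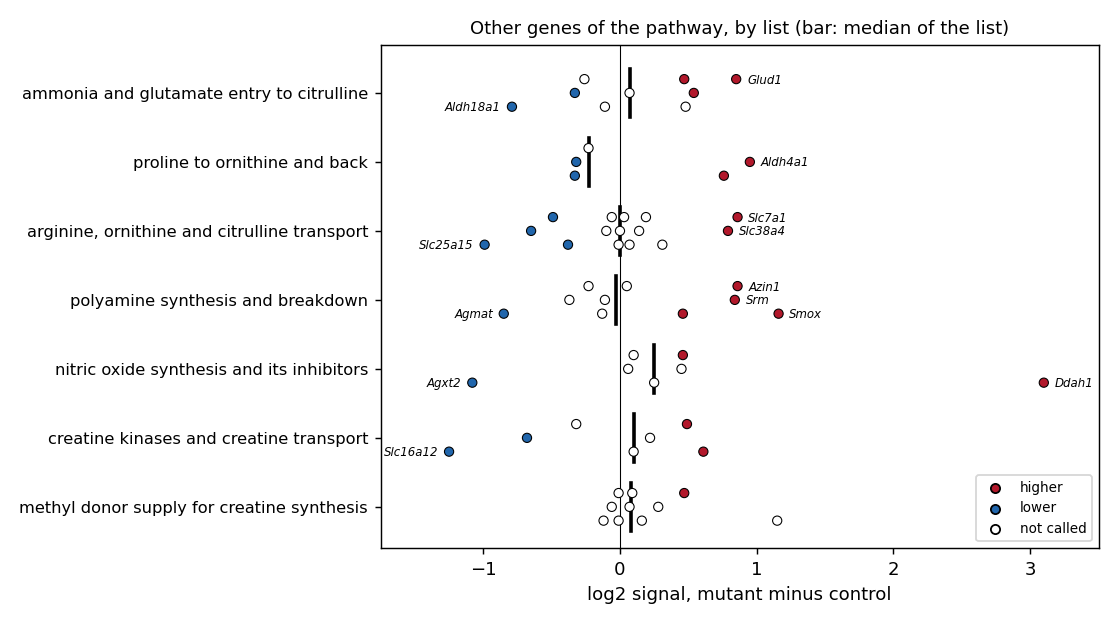
Difference in log2 signal, mutant minus control (3 arrays each), of 63 genes in 7 lists. Each point is a gene, red for a called rise, blue for a called fall and white for neither, and black bars are list medians. *Ddah1* stands far to the right at 3.10, and *Slc16a12*, *Agxt2* and *Slc25a15* lie furthest to the left.

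The full route to arginine is a trait of the suckling gut, and other genes of suckling enterocytes were read beside it. Of 5 measured, all fell, with *Fbp1* (-1.79), *Pck1* (-1.60), *G6pc* (-1.14) and *Lct* (-0.94) leading. Of 3 genes of enterocytes after weaning, *Sis* (2.52) and *Mgam* (1.19) rose and *Treh* was not called (0.08). The order of the mutant arrays in *Sis* was that in *Arg2*, with 10.14, 11.10 and 9.45 in mutant villi, so that mutant replicate 2 was the highest and mutant replicate 3 the lowest mutant for both. The control values of *Sis* were 7.54, 7.80 and 7.80. On the first principal component, mutant replicate 3 was the mutant nearest to the control arrays. A link between *Sis* and *Arg2* was not tested, nor was one between enterocyte state and the falls of the listed enzymes.
The 3 genes whose centred signals over the 6 arrays differed least from those of *Gatm* were *Nox4*, *Mptx1* and *Ccl6*, with root mean square differences of 0.221, 0.357 and 0.364. *Nox4*, an NADPH oxidase, gave 5.38, 5.36 and 5.75 in mutant villi, against 9.53, 9.40 and 9.46 in control villi. Like *Gatm*, it was highest among the mutants in replicate 3. Unlike that of *Gatm*, the mutant means of *Nox4* and *Mptx1* lay under the arrays' median.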

How the data were processed

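By the paper, villi of 3 mutant and 3 control littermates at P5 were profiled, here with 1 array per replicate. Control replicates 2 and 3 held both *Xist* and *Eif2s3y*, so whether each array stands for a single mouse is not settled. The authors deposited normalized log2 signals for each probe set on each array, to the nearest 0.01. Background correction, summary and normalization are steps whose methods were not found in the labels or the paper, and they could shift every difference. The number of arrays limits the precision. Of 30177 probe sets, 21789 had 1 gene symbol in the platform's annotation, 1621 had several and 6767 were not listed. Names were checked through Entrez IDs in a RefSeq table (GRCm38.p6), which changed 0 symbols.

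Groups were compared with limma 3.58.1 (lmFit and eBayes) in R 4.3.3 over all probe sets, with Benjamini-Hochberg adjustment and a prior of 3.92 degrees of freedom. The statistics were tested on simulated data with independent noise on each array, so pooled samples or RNA of other tissues were not imitated. Tables and figures were made with pandas 2.3.3 and matplotlib 3.10.9 in Python 3.11.15. Calls rest on an adjusted p of 0.05 or less alone, and counts at a change of at least 2-fold, which the paper also required, are given beside them for the members. P-values set each difference against the spread between arrays within the groups, which limma moderates over all probe sets. Whether that is a spread between single mice is not settled. Named were the members, *Trpm7*, up to 4 called genes of each list with the largest change (or 2 where none was called), called marker genes with the 2 highest, and the 3 genes most like *Gatm*. Some of the marker genes so selected are given only in counts. Members and lists were chosen with earlier results of these data known. Alternatives were array weights, quantile normalization, median centring, the replicate number as a block, eBayes with a trend and robust settings, a filter on dim probe sets, single symbols only, an offset of 32, each replicate left out, control replicates 2 and 3 averaged, control replicate 1 alone, and the probe set with the lowest mean.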

Additional observations from a re-analysis of the deposited data

How the results depend on the processing

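The direction of each of the 9 genes and of both shared probe sets was kept under each alternative that tested it, and of 181 differences recomputed 178 stayed on their side of the threshold. The 3 others were *Cps1*, *Otc* and *Oat*, not called against control replicate 1 alone (-0.36, -0.55 and -0.41, adjusted p = 0.17, 0.108 and 0.132 from limma), a setting with 1 control that is assumed to vary like the mutants. There, 3 genes of the list fell in place of 6, 2 of them at least 2-fold, and 974 probe sets rose and 759 fell. *Arg1* and *Arg2* were tested in 16 of the 17 alternatives and the shared probe sets in 15. These counts include the probe set with the lowest mean. It repeated the main result for the 9 genes, which have 1 probe set each, and could not differ. Without dim probe sets 0 members rose, since *Arg2* was not tested. With 1 replicate left out, 6 members fell and 1 rose each time, while over all probe sets 1561 to 2037 rose and 1688 to 2348 fell, fewest without mutant replicate 2 (1561 and 1688), followed by control replicate 2 (1590 and 1746) and control replicate 3 (1714 and 1764). The highest adjusted p of a member that changed was then 0.0419 (*Cps1*, without mutant replicate 2). Whether the shared replicate numbers pair the samples is not given. Deviations of arrays with the same number correlated at 0.174, 0.039 and 0.119. Those of arrays with different numbers correlated at -0.162 to 0.0855. So few and weak correlations cannot decide whether the samples are paired. With the replicate number as a block 6 members fell, 1 rose, and 2381 probe sets rose and 2576 fell, so that it changed no call of a member. Of 578 list counts recomputed, 73 moved by over 1.5 times. The lower group mean lay under the arrays' median for *Arg1*, *Arg2*, *Slc16a12*, *Agxt2*, *Ckmt2*, *Aldh4a1*, *Slc38a4* and *Mat1a*. The same held for *Nox4*, *Mptx1*, *Adgre1*, *Csf3r* and *Fgb*. Nearness to background was not tested for any of these genes.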
